A study of Caenorhabditis elegans with 12 samples.

Results

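The polyadenylated transcriptome of whole N2 animals, the laboratory wild type of the nematode Caenorhabditis elegans, was described at day 1 of adulthood. The N2 libraries were taken by their strain label and number 3 of the 12 in the series. The other libraries come from dsb-2(me96), spo-11(me44) and htp-3(y428) meiotic mutants and enter no result given here. The N2 animals carried no named allele or transgene and received no treatment. They were kept at 20 °C on plates seeded with E. coli OP50, were picked at the L4 larval stage and were collected as adults. The number of animals per library and their sex are not stated in the labels, nor whether the 3 libraries came from separate cultures. All spreads below are therefore SDs between these 3 libraries, which may in part be technical.

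A young adult nematode is largely a reproducing animal. Its gonad holds dividing and meiotic germ cells and a row of growing oocytes that store messenger RNA for the embryo, its intestine secretes yolk, and its epidermis maintains a cuticle of collagens. Its cells otherwise draw on the same machinery for protein synthesis, protein turnover and energy supply as those of other animals. In C. elegans most genes of the X chromosome are kept silent in the germ line, and large families of chemoreceptor genes are expressed in small numbers of sensory neurons. In bulk RNA of this kind, fewer cells of a type cannot be told apart from less RNA per cell.

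Each library had values for the same 20222 genes in TPM units, which are reads divided by exon length and scaled to a common total. Reads rebuilt from the deposited values gave 37621656, 39239671 and 42378902 mapped reads for replicates 1, 2 and 3. The listed genes held 97.5%, 87.2% and 95.04% of them, so replicate 2 had the largest share, 12.8%, outside the listed genes. The rebuilt reads of every pair of libraries differed beyond sampling noise (chi-square of 58.1 or more for each degree of freedom, which takes reads as independent and covers counting error only), and all 3 were counted as separate samples. Over all listed genes Pearson's r of log2(TPM + 1) lay between 0.993 and 0.994 and Spearman's rho between 0.973 and 0.980. These correlations are across genes, which are not independent replicates. Near-identical, overlapping and antisense genes could not be told apart from these tables, so ribosomal protein, collagen, major sperm protein, histone and hsp-16 genes are uncertain as single genes.

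Transcript abundance was concentrated in genes of the translation machinery. The most abundant transcript was rpl-41.2, which encodes a very short protein of the large ribosomal subunit (chromosome I, 4790292 to 4790649), at 8461, 9587 and 11558 TPM. Its mean was 9869 TPM ± 1568 (SD, n = 3). The second was eef-1A.1, the elongation factor that delivers aminoacyl-tRNA to the ribosome (chromosome III, 6970026 to 6972003), at 8285, 7732 and 10372 TPM. These transcripts overlapped each other in level across libraries, and neither overlapped with those that followed. The small-subunit gene rps-23 came next at 7164, 6092 and 6616 TPM.

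Among the 30 most abundant genes, 27 carried the prefixes rpl, rps or rla, which name proteins of the large subunit, the small subunit and the ribosomal stalk. The others were eef-1A.1, the sequence-named gene Y37E3.8 at 6244 TPM ± 262 (SD, n = 3), and ubq-2, a ubiquitin fused to a ribosomal protein, at 3929 TPM ± 528 (SD, n = 3). The order within this group was not resolved: 28 of the 29 pairs of neighbouring ranks overlapped between libraries, the exception being eef-1A.1 and rps-23. Coefficients of variation (CV, SD as a percent of the mean) among the 30 ran from 3.05% to 17.8%. Across the 100 most abundant genes 70 were of the same 3 prefixes, and 91 of the 100 were in the top 100 of every library.

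**Figure D1:**
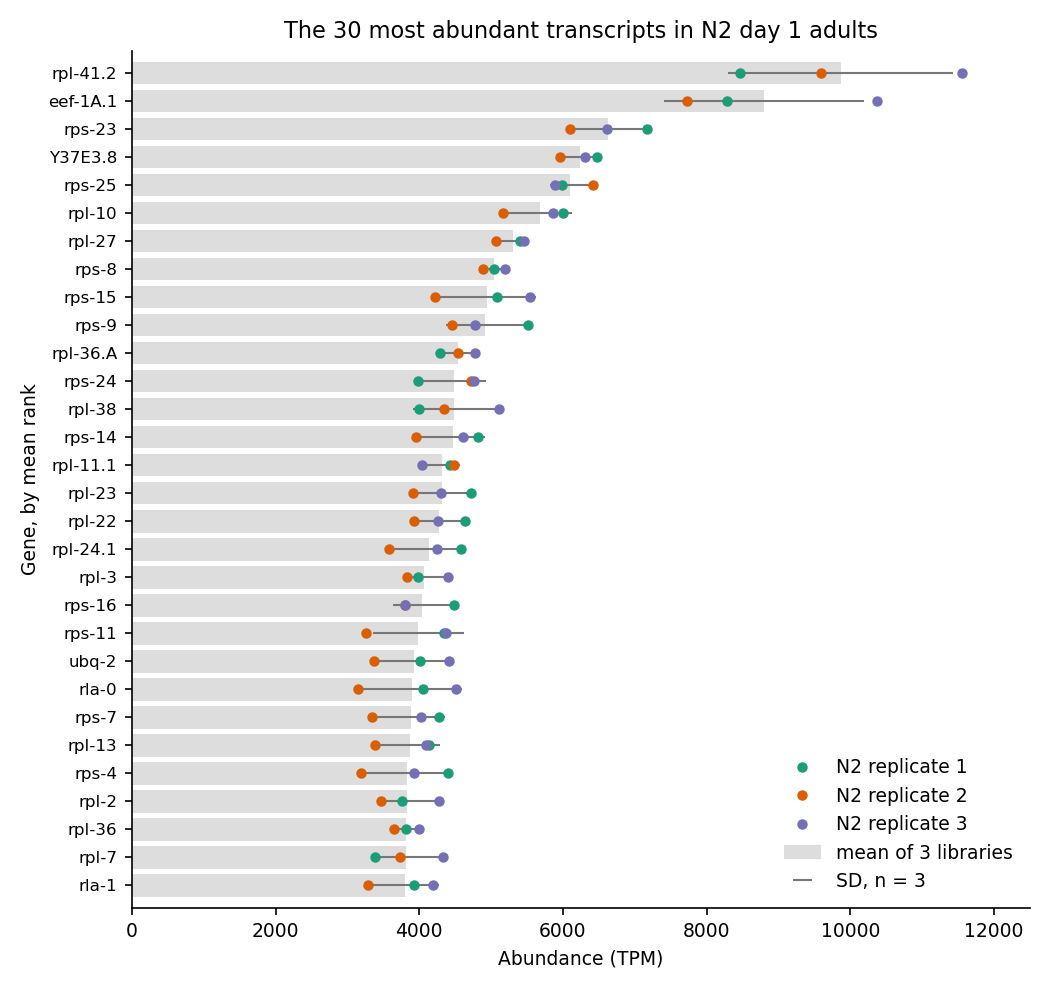
TPM of the 30 most abundant genes in each N2 library (points), with the mean (bar) and SD (line, n = 3). The points of rpl-41.2 and eef-1A.1, with means of 9869 and 8796 TPM, stand apart, and below them the points of neighbouring genes overlap.

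Below the 30 most abundant genes also stood transcripts without the prefixes rpl, rps or rla. Those named in this paragraph that lead no family, chromosome or marker list were chosen after their values were seen. The germ-line RNA-binding protein gene cey-2, of the Y-box family, stood at 4358, 3604 and 3303 TPM. The nucleoside diphosphate kinase ndk-1 reached 3207 TPM ± 390 and the mitochondrial ADP/ATP carrier ant-1.1 reached 2994 TPM ± 272 (SD, n = 3). The Hsp90 gene daf-21 had 2577 TPM ± 237 (SD, n = 3). Several abundant genes have no name beyond their sequence name, among them W01D2.1 at 3372 TPM ± 438 and R09B3.3 at 3177 TPM ± 481 (SD, n = 3). A sequence name does not tell what a gene encodes, so any ribosomal proteins among them are missing from counts by prefix. All 10237 sequence-named genes together held 22.4% ± 0.939 of the TPM (SD, n = 3).

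The 10 most abundant genes held 6.38% ± 0.389 of all TPM, the top 100 held 34.95% ± 2.62 and the top 1000 held 69.4% ± 2.14 (SD, n = 3). The first 50% of the TPM was reached with 249, 320 and 219 genes in replicates 1, 2 and 3, so replicate 2 was the least concentrated. By mean level, 153 genes at 1000 TPM or more held 42.6% of the TPM and 1582 genes between 100 and 1000 TPM held 35.9%. A further 4663 genes lay between 10 and 100 TPM and 3762 between 1 and 10 TPM. In all, 9549 genes reached 1 TPM in every library and 6043 reached 10 TPM.

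Grouped by the letters of their names, the 81 genes of the cytosolic ribosomal protein prefixes rpl, rps and rla held 27.2%, 24.2% and 28.9% of the TPM. The share was lowest in replicate 2 and averaged 26.7% ± 2.42 (SD, n = 3). As a share of reads, which are not divided by length, the same genes held 13.6%, since their transcripts are short. The 47 rpl genes held 14.7% ± 1.505 and the 31 rps genes 11.1% ± 0.842 (SD, n = 3). Every rps gene was above 1000 TPM, down to rps-22 at 1676 TPM ± 217 (SD, n = 3). In the large subunit 41 of 47 genes were above 1000 TPM and rpl-42 was the only one below 100 TPM, with 0, 0.0626 and 0.0513 TPM.

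Several large-subunit proteins are encoded by a pair of genes, and the members of each pair named here were far apart in level. In the rpl-11 pair, rpl-11.1 stood at 4317 TPM ± 245 and rpl-11.2, on the X chromosome, at 448 TPM ± 37.7 (SD, n = 3). In the rpl-25 pair, rpl-25.2 stood at 3224 TPM ± 638 and the X-linked rpl-25.1 at 268 TPM ± 56.3 (SD, n = 3). In the rpl-41 pair the lesser member, rpl-41.1, stood at 548 TPM ± 93.4 (SD, n = 3). These pairs were chosen after their values were seen, and reads of near-identical members could be split between them.

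The numbered cuticle collagens (prefix col) were the next family, with 157 genes and 2.58% ± 0.167 of the TPM (SD, n = 3). Their levels were uneven: 13 genes were at 0 in all libraries, 58 were at 1 TPM or more in every library, and the 10 most abundant held 68.3% of the family's total. The leading member, col-140, stood at 3047, 2396 and 2351 TPM. The 6 translation elongation factors of the prefix eef held 1.58% ± 0.147 (SD, n = 3), of which eef-1A.1 made up 55.7%. The 24 initiation factor genes (eif) were all at 1 TPM or more and held 0.492% ± 0.0242 (SD, n = 3).

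The 6 vitellogenins, the yolk proteins made by the intestine and taken up by oocytes, held 1.08%, 1.23% and 1.41% of the TPM. Replicate 3 was highest for 16.8% of all genes at 1 TPM or more and for every vitellogenin. It was also highest for 51.6% of the 153 genes at 1000 TPM or more, a class that holds every vitellogenin but vit-1. Their transcripts are long, and the same genes held 5.16% of the reads. The leading members were vit-6 at 3249 TPM ± 683 and vit-2 at 3195 TPM ± 530, and the lowest was vit-1 at 662 TPM ± 103 (SD, n = 3). No vitellogenin was in the 30 most abundant genes by TPM.

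Among the other families with the largest shares were 4 of reproductive and digestive proteins. The chondroitin proteoglycans (cpg, 7 genes), of which some belong to the eggshell, held 0.451% ± 0.0300, led by cpg-2 at 1924 TPM ± 219 (SD, n = 3). The uterine lumen proteins (ule, 5 genes) held 0.318% ± 0.0718 and were led by ule-4 at 1569 TPM ± 410 (SD, n = 3). The aspartyl proteases (asp, 18 genes, 4 at 0), of which some digest protein in the gut, held 0.519% ± 0.0331 and were led by asp-1 at 1647 TPM ± 352 (SD, n = 3). The saposin-like proteins (spp, 23 genes, 1 at 0) held 0.410% ± 0.0314, with spp-17 at 1064 TPM ± 217 (SD, n = 3).

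Some families rested on 1 or a few members. The fatty-acid and retinol binding proteins (far, 8 genes) held 0.404% ± 0.0353 (SD, n = 3), of which far-2 made up 75.1%. The heat shock proteins (hsp, 21 genes, 1 at 0) held 0.404% ± 0.0211 (SD, n = 3), of which the constitutive Hsp70 gene hsp-1, at 2444 TPM, made up 60.5%. The C-type lectins (clec), sugar-binding proteins of which many act in defence, counted 243 genes with 81 at 0 in all libraries, yet held 0.403% ± 0.0306 (SD, n = 3). Of that share clec-87, at 1563 TPM ± 206 (SD, n = 3), made up 38.8%. The cyclophilins (cyn, 16 genes) held 0.479% ± 0.0585 (SD, n = 3), and cyn-7 at 2534 TPM made up 52.9% of it.

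In other families few or no members were at 0. All 20 vacuolar ATPase genes (vha) were at 1 TPM or more in every library and held 0.375% ± 0.0162, led by vha-2 at 571 TPM ± 15.8 (SD, n = 3). All 39 mitochondrial large-subunit ribosomal genes (mrpl) were at 1 TPM or more and held 0.373% ± 0.00676, led by mrpl-51 at 221 TPM ± 26.8 (SD, n = 3). The 33 genes of the proteasome prefixes were all detected and held 1.11% of the TPM, with pas-2 highest at 718 TPM ± 109 (SD, n = 3). The 5 actins held 0.349% ± 0.0450 and were led by act-2 at 1554 TPM ± 81.7 (SD, n = 3). The 58 transthyretin-like genes (ttr, 5 at 0) held 0.346% ± 0.0515 and were led by ttr-2 at 530 TPM ± 70.2 (SD, n = 3). The 5 genes of the prefix atp, subunits of ATP synthase, held 0.525% ± 0.0330 (SD, n = 3), and atp-6, which is encoded by the mitochondrial genome, made up 48.5% of it.

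**Figure D2:**
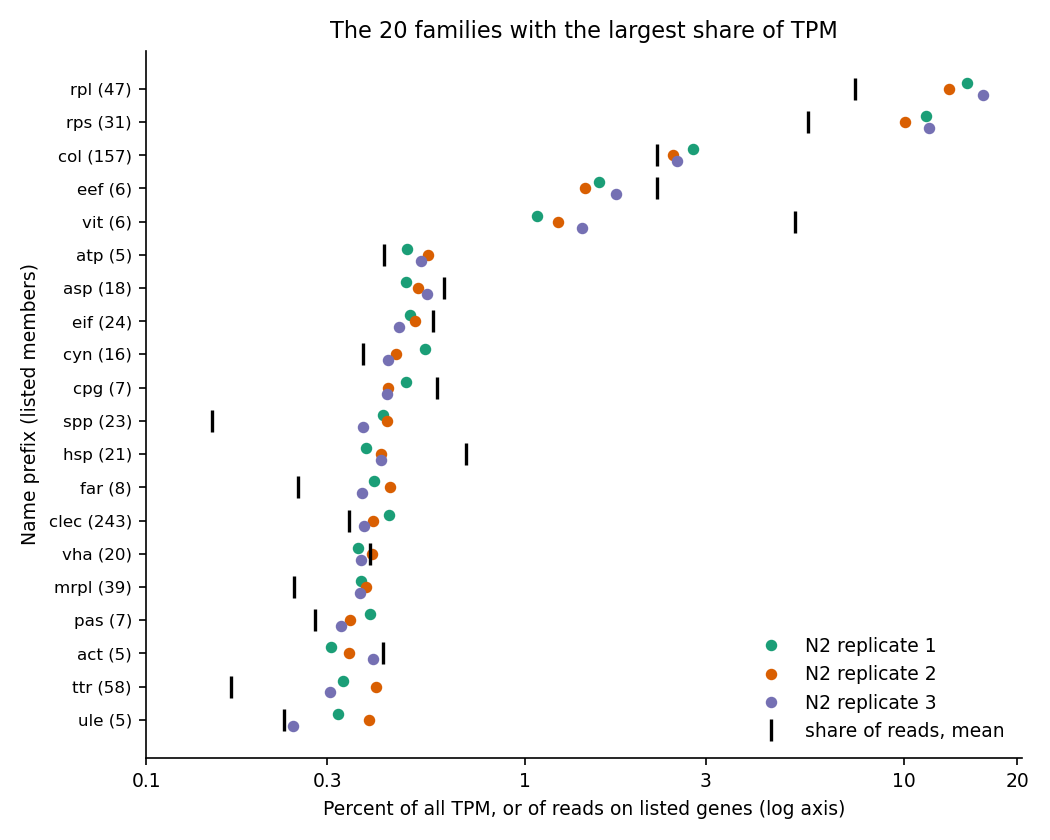
Percent of all TPM held by the 20 families with the largest share in each N2 library (points), and their mean percent of the reads on listed genes (vertical marks), on a log axis. The rpl and rps families stand apart at 14.7% and 11.1%, and the marks lie right of the points for families with long transcripts, such as vit at 5.16% of reads.

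The 3 genes whose mutants make up the rest of the series act in meiotic recombination and were of moderate level in N2. The chromosome axis gene htp-3 (chromosome I, 4827072 to 4829794) stood at 77.9, 69.2 and 67.9 TPM. The break-promoting gene dsb-2 (chromosome II, 14411095 to 14412218) stood at 57.6, 62.5 and 55.4 TPM. The gene of the break-making enzyme, spo-11 (chromosome IV, 11123133 to 11124862), stood at 29.6, 45.9 and 24.5 TPM. The 3 genes did not overlap in level, with htp-3 highest and spo-11 lowest in every library, and spo-11 varied most, with replicate 2 above the others.

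Marker lists of tissues were read as a description of the labelled whole animal. The lists were chosen with earlier results of these data known, so they are no independent check of the label. Yolk, oocyte and germ-line lists were detected in full, while 9549 of all 20222 listed genes reached 1 TPM in every library. All 6 yolk genes, which are the vitellogenins, all 30 oocyte and eggshell genes and all 26 germ-line genes reached 1 TPM in every library. The median was 379 TPM in the oocyte and eggshell list and 138 TPM in the germ-line list. After cey-2, the leading oocyte genes were cpg-2 and perm-2, an eggshell permeability-barrier gene, at 1427 TPM ± 194 (SD, n = 3). The leading germ-line genes were car-1 and cgh-1, RNA-binding and RNA-helicase components of germ granules, at 1257 TPM ± 105 and 1144 TPM ± 108, followed by the translational repressor gld-1 at 569 TPM ± 93.3 (SD, n = 3). The lowest germ-line gene was fbf-1, a regulator of germ-line stem cells, at 11.2 TPM ± 3.43 (SD, n = 3).

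Somatic lists were detected in part. Over all listed genes 9549 of 20222 reached 1 TPM in every library. The neuron list, at 53.8%, and the hypodermis list, at 50%, were near that share. In the intestine list 18 of 20 genes reached 1 TPM in every library, led by asp-1, asp-6 at 1118 TPM ± 10.6 and the cathepsin B-like cpr-6 at 870 TPM ± 216 (SD, n = 3). In the muscle list 18 of 25 did, led by the myosin light chain mlc-2 at 934 TPM ± 79.2, the troponin I gene unc-27 at 365 TPM ± 64.1 and the cofilin unc-60 at 347 TPM ± 40.9 (SD, n = 3). In the gonad sheath list 12 of 15 did, led by the calponin-like cpn-3 at 399 TPM ± 83.9, the innexin inx-8 at 110 TPM ± 11.7 and the filamin fln-1 at 65.1 TPM ± 8.84 (SD, n = 3), while ehn-3 was at 0 in all libraries. The neuron list had 14 of 26 genes at 1 TPM, but the synaptobrevin snb-1 alone made up 242 TPM of a mean sum of 332 TPM. The next neuron genes were sbt-1 and egl-21, which act in neuropeptide processing, at 15.1 TPM ± 2.69 and 15.05 TPM ± 2.55 (SD, n = 3). The hypodermis list, of epidermal and mostly larval cuticle genes, had 8 of 16 at 1 TPM, led by the nuclear receptor nhr-23 at 20.2 TPM ± 2.43, the collagen sqt-3 at 9.74 TPM ± 3.91 and grd-10 at 6.73 TPM ± 5.40 (SD, n = 3).

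Within the muscle list the transcripts with the longest exons were among the lowest, but some shorter members were also below 1 TPM. The giant sarcomere proteins titin, obscurin-like UNC-89 and twitchin are encoded by ttn-1 (56596 bp of exon), unc-89 (25961 bp) and unc-22 (23368 bp), and these stood at 0.0351, 0.358 and 0.296 TPM. The body-wall myosin unc-54 (6295 bp) stood at 46.8 TPM ± 5.80 and the tropomyosin lev-11 (2505 bp) at 275 TPM ± 29.6 (SD, n = 3). Also below 1 TPM were tnt-4 (1361 bp) at 0.204 TPM, myo-2 (6334 bp) at 0.173 TPM and myo-1 (6548 bp) at 0.166 TPM. Over all genes with an annotated exon length, none of 52 genes of 10000 bp or more reached 100 TPM, against 11.4% of 5317 genes between 500 and 1000 bp. The median level was 0.858 TPM in the longest class and 6.86 TPM among 3652 genes of 2000 to 5000 bp, so level did not fall steadily with length. The part of exon length in the low muscle values was not tested. The muscle genes named here below the leading 3 were chosen after their values were seen.

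The sperm, early embryonic and male lists were low. Over all listed genes 9549 of 20222 reached 1 TPM in every library, a larger share than in each of these lists. In the sperm list 11 of 31 genes reached 1 TPM in every library, and the leading spe-39 at 53.2 TPM ± 3.41 and spe-44 at 21.6 TPM ± 1.18 (SD, n = 3) are a trafficking gene expressed in many tissues and a transcription factor of spermatogenesis. The third was nspd-2 at 1.84, 6.06 and 19.05 TPM. In the list of early embryonic genes 6 of the 19 found reached 1 TPM in every library, led by vet-2 at 5.26 TPM, the gut regulator elt-7 at 4.24 TPM and ref-1 at 3.13 TPM. The embryonic regulators tbx-35, hlh-27 and med-1 and the gene sdz-23 were at 0 in all libraries. Of 16 male somatic genes found, only ram-2 reached 1 TPM in every library, at 1.45, 5.03 and 9.87 TPM. The next male genes were her-1 at 0.8002 TPM and mab-3 at 0.0935 TPM, and lov-1, clec-164, clec-207, cwp-1 and cwp-2 were at 0 in all libraries.

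The chromosomes contributed unequally for their number of genes. Chromosome I held 14.3% of the genes and 24.4% ± 0.512 of the TPM, and chromosome III held 13.2% of the genes and 21.5% ± 0.292 of the TPM (SD, n = 3). Chromosome IV held 16.3% of the genes and 18.9% ± 0.0882 of the TPM, and chromosome II held 17.3% of the genes and 14.4% ± 0.190 of the TPM (SD, n = 3). Chromosome V held 25.1% of the genes and 14.3% ± 0.327 of the TPM (SD, n = 3). The X chromosome held 13.7% of the genes and 5.17% ± 0.261 of the TPM (SD, n = 3). The order of chromosomes I, III and IV and the place of X as the lowest of the nuclear chromosomes were the same in every library, while II and V overlapped.

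The ribosomal protein genes were a part of these differences. Of the 81, chromosome I carried 25, III and IV carried 18 each, II carried 10, V carried 8 and X carried 2. Without them chromosome I held 21.6% ± 0.201 of the remaining TPM, III held 21.9% ± 0.296 and X held 6.96% ± 0.246 (SD, n = 3). The leading genes of the chromosomes were rpl-41.2 on I, rpl-10 at 5677 TPM ± 447 on II, eef-1A.1 on III, rps-23 on IV and rpl-38 at 4485 TPM ± 571 on V (SD, n = 3). On X the leading gene was vit-2 and on the mitochondrial genome atp-6.

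The X chromosome differed from the autosomes in the level of its detected genes more than in the share of genes detected. Of its 2777 genes, 10.2% were at 0 in all libraries, which lies between the 5.80% of chromosome III and the 27.2% of V, and 44.8% reached 1 TPM in every library. Among genes at or above 1 TPM in every library, the median level was 7.59 TPM on X and between 21.7 and 42.02 TPM on the autosomes. Over all listed genes the median of X, 0.914 TPM, lay above the 0.163 TPM of V and near the 0.937 TPM of II. It was below those of I, III and IV. Only 2.84% of X genes had a mean of 100 TPM or more, against 14.5% on chromosome III and 5.11% on chromosome V. These are descriptions over genes, without a test.

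A few families made up a large part of the X-linked TPM. The 5 vitellogenins on X held 17.7% ± 1.80 of it and the 28 collagens 10.4% ± 1.204 (SD, n = 3). With both families left out of all chromosomes, the X share of TPM was 3.86% ± 0.268 (SD, n = 3). The 9 X-linked genes above 1000 TPM, chosen after their values were seen, were vit-2, vit-3, vit-4, vit-5, col-178, col-181, the lysozyme ilys-5, the saposin-like spp-5 and the sequence-named F23A7.8. Counted as reads instead, X held 7.96%.

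The 12 listed genes of the mitochondrial genome held 1.08%, 1.51% and 1.18% of the TPM, highest in replicate 2. Mitochondrial mRNAs carry short poly(A) tails, and the libraries were made from RNA selected for poly(A). The most abundant were atp-6 at 2544 TPM ± 311, then the cytochrome c oxidase subunits ctc-3 at 2325 TPM ± 488, ctc-1 at 2183 TPM ± 428.4 and ctc-2 at 2016 TPM ± 101, and cytochrome b, ctb-1, at 1976 TPM ± 392 (SD, n = 3). Neighbours in this order overlapped in level, while atp-6 and ctc-2 did not. The NADH dehydrogenase subunits were lower, from nduo-1 at 367, 1041 and 526 TPM down to ndfl-4 at 28.2, 66.4 and 46.5 TPM. Levels within this genome spanned from 47.1 to 2544 TPM.

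**Figure D3:**
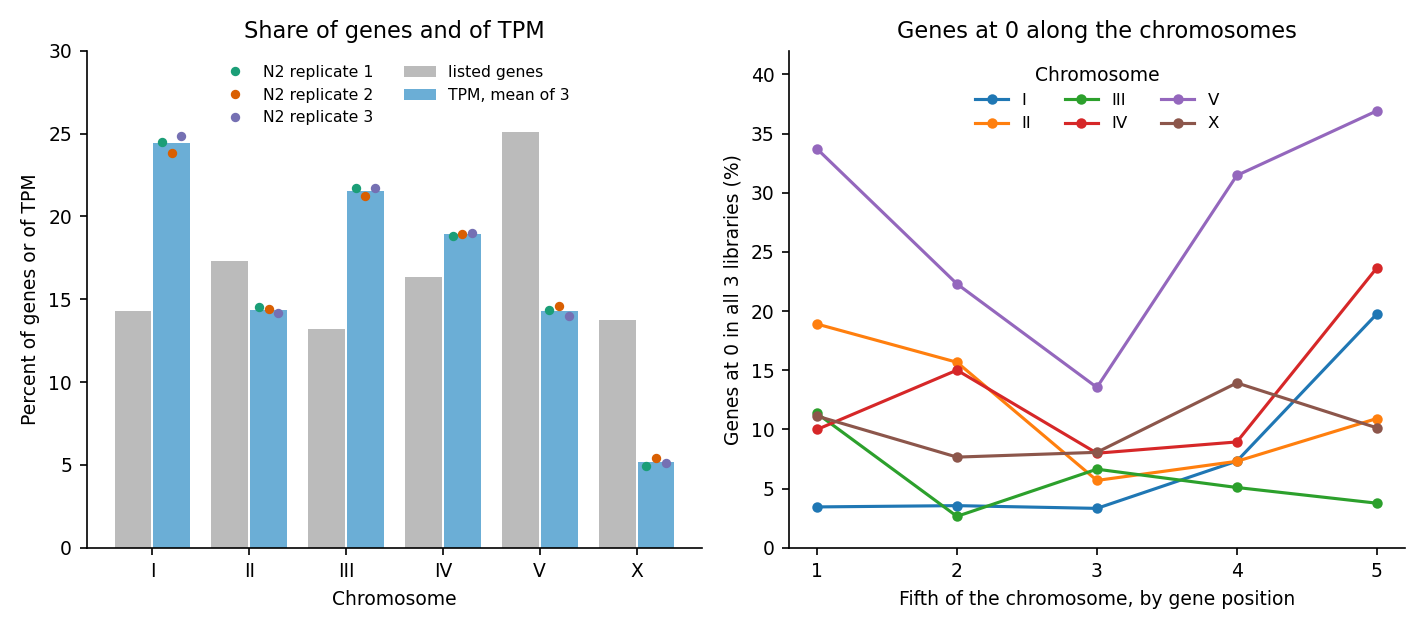
Left, percent of listed genes (grey) and of TPM (blue mean, points per N2 library) on each nuclear chromosome. Right, percent of genes at 0 in all 3 libraries in each of 5 segments of equal length along the chromosome, with V between 13.6% in its middle and 36.9% at its right end.

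No value was recorded in any library for 2861 genes, 14.1% of those listed. A further 1198 genes were at 0 in 2 libraries and 1289 in 1, and 14874 had a value in all. A 0 allows up to 3 reads, which is 0.0960, 0.107 and 0.0880 TPM for a gene with 1 kilobase of exon in replicates 1, 2 and 3, so these genes were not detectable at this depth and are not shown to be silent. That limit covers counting error only. Of the 1198 genes seen in a single library, 68.1% rested on 1 read. The highest of them was ebp-3, with 2.72 TPM from 48 reads in replicate 1 and none in the others.

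Genes at 0 lay largely on chromosome V and in the chemoreceptor families. Chromosome V carried 1382 of them, 48.3%, and 27.2% of its genes were at 0. The nematode chemoreceptors, G-protein-coupled receptors of sensory neurons with the prefix str or a prefix that starts with sr, counted 1329 genes, of which 918 were at 0 in all libraries (69.1%). The group with the 7 odr genes added held 905 members on chromosome V, 67.7% of the group. With that group left out, 17.4% of the genes on V were at 0, against 8.28% of the genes on the other chromosomes.

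The 10 families of at least 20 members with the highest share at 0 were all of this kind. In the srz family 59 of 67 genes were at 0, in srbc 60 of 70, in srw 88 of 112, in srx 81 of 105 and in srh 168 of 220. In srg 46 of 61 were at 0, in srj 30 of 40, in str 133 of 194, in srt 43 of 65 and in sru 26 of 40. Most of their leading members were also near the floor: srz-99 stood at 0.0893 TPM, srbc-19 at 0.0715, srw-89 at 0.241, srx-125 at 0.452, srg-34 at 0.330, srj-14 at 0.451, srt-14 at 0.190 and sru-21 at 0.110 TPM. The exceptions were srh-237 at 4.15, 11.2 and 6.90 TPM and str-176 at 7.34, 7.01 and 6.38 TPM.

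A few chemoreceptor genes were well above the rest. Of the 1329, 1319 had a mean under 1 TPM and 9 reached 1 TPM in every library. The highest, sri-40, stood at 39.8, 53.0 and 45.6 TPM, and was chosen after its values were seen. Together the 1329 genes held 0.0105% ± 0.00185 of the TPM (SD, n = 3). The odr genes, named for odour response, are of mixed kind, and odr-8 at 80.6 TPM and odr-4 at 48.9 TPM are a peptidase and a factor of receptor trafficking and not receptors.

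Along the chromosomes the genes at 0 were denser toward the ends of chromosome V. In 5 segments of equal length from the left end, 33.7%, 22.3%, 13.6%, 31.5% and 36.9% of its genes were at 0. Chromosome I showed 3.46% in the first of these segments and 19.8% in the last, and chromosome IV showed 10% and 23.6%. Chromosome III stayed at or below 11.4% in each segment. The X chromosome showed between 7.67% and 13.9%. The division into segments was chosen after the data were seen.

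Of the 2861 genes at 0, 2643 were protein-coding. Of 319 annotated pseudogenes 126 were at 0 (39.5%), and of 170 identifiers that were not found in the annotation 89 were (52.4%), against 13.4% of the 19720 protein-coding genes and 1 of 8 lincRNAs. The long genes at 0 show what depth could exclude. The longest was lov-1 (chromosome II, 10109279 to 10121825; 10034 bp of exon), a polycystin of male sensory neurons, for which 3 reads are at most 0.0107 TPM. It was followed by ZC178.2, F28B1.3, the LysM-domain gene lmd-4, Y57A10B.2, T28B8.3, F26C11.3, F59H6.5, ZK250.9 and F33H12.6, with lengths from 7914 down to 4852 bp and limits up to 0.0221 TPM. For Y57A10B.2, F59H6.5, ZK250.9 and F33H12.6 no annotated exon length was found and the gene span was used, so their limits are too low if they hold introns.

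Variation between the 3 libraries was modest for most genes. Among 10160 genes with a mean of at least 1 TPM the median CV was 15.7%. It was 24.99% between 1 and 10 TPM, 13.4% between 10 and 100 TPM, 9.68% between 100 and 1000 TPM and 12.4% at 1000 TPM or more. Counting error alone gives 8.90%, 2.32%, 1.24% and 0.418% in these classes, so library spread exceeded counting error in each. Below 0.1 TPM the median CV of 97.2% was close to the 100% of a single read.

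The direction in which libraries deviated depended on the scaling. By TPM, 62.7% of genes at 1 TPM or more were highest in replicate 2, but 30.2% were by median-of-ratios scaling, 31.6% by upper-quartile scaling and 38.002% by RPKM. The median gene lay 0.14 above its mean in replicate 2 on the log2 scale and 0.09 below it in each of the others. Replicate 2 was also the library with the lowest ribosomal share and the largest share of reads outside the listed genes; their part in this shift was not tested. The highest and lowest libraries given below are in TPM, and the other scalings are given where they were compared.

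Ribosomal protein genes deviated together. In TPM, 64 of the 80 at 1 TPM or more were lowest in replicate 2, and 76 or 77 were under the other scalings. Of all 10160 genes at 1 TPM or more, 1080 were lowest there in TPM and 3938 by median-of-ratios scaling. Of the 153 genes at 1000 TPM or more, which include most ribosomal protein genes, 87 and 132 were. The summed level of the ribosomal protein genes was 271522, 241554 and 289418 TPM. Proteasome genes deviated in another way, with 20 of 33 highest in replicate 1 in TPM, 31 by median-of-ratios scaling and 28 by upper-quartile scaling. Of all genes at 1 TPM or more, 20.5%, 42.8% and 33.3% were highest in replicate 1 under these scalings. The summed level of the proteasome genes differed by 1.16-fold in TPM and by 1.33-fold by median-of-ratios scaling. The mitochondrial genome was highest in replicate 2 for 11 of 12 genes in TPM and for 9 under the other scalings.

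The inducible small heat shock genes hsp-16 supplied 5 of the 20 most variable genes at 10 TPM or more. These genes lie as divergent pairs on chromosome V and are strongly raised by heat and other stresses. Transcripts of hsp-16.11 (9090077 to 9090604) stood at 66.3, 141 and 27.6 TPM, of hsp-16.48 at 34.95, 74.0 and 17.6 TPM and of hsp-16.49 at 34.7, 72.5 and 16.3 TPM. The second pair was lower, hsp-16.2 at 9.67, 21.1 and 2.53 TPM and hsp-16.41 at 10.5, 21.8 and 2.15 TPM. All 5 were highest in replicate 2 and lowest in replicate 3, under each scaling. In TPM, 6373 of all 10160 genes at 1 TPM or more were highest in replicate 2 and 4675 were lowest in replicate 3. The near-identical hsp-16.1 was listed at 0 throughout, and reads of the 2 copies cannot be told apart.

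Other chaperone genes did not share 1 pattern. In TPM hsp-70 had the same order of libraries as the hsp-16 genes, at 5.08, 7.12 and 1.03 TPM. That gene was chosen after its values were seen. The Hsp70-family gene F44E5.5 stood at 57.2, 90.5 and 14.8 TPM and its neighbour F44E5.4, chosen after its values were seen, at 32.7, 39.8 and 8.34 TPM. Both were lowest in replicate 3 under each scaling, and both were highest in replicate 2 except that F44E5.4 was highest in replicate 1 by median-of-ratios scaling. The endoplasmic reticulum chaperone hsp-4 stood at 308, 293 and 253 TPM and the mitochondrial chaperone hsp-6 at 243, 319 and 296 TPM, both chosen after their values were seen. The constitutive hsp-1 stood at 2343, 2235 and 2755 TPM and daf-21 at 2849, 2416 and 2465 TPM. Among the 15 hsp genes other than hsp-16 at 1 TPM or more, 11 were highest in replicate 2 in TPM but 6 were under each of the other scalings. In TPM 5 of the 15 were lowest in replicate 3, against 4675 of all 10160 genes at 1 TPM or more. The summed hsp-16 level was 5-fold higher in replicate 2 than in replicate 3 in TPM and 4.21-fold by median-of-ratios scaling. Without replicate 2 the mean hsp-16 share of the TPM fell from 0.0184% to 0.0111%.

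Collagens supplied 5 of the 20 most variable genes at 10 TPM or more. The highest CVs were 89.7% for col-129, at 25.7, 59.6 and 173 TPM, 89.4% for col-81, at 13.6, 49.9 and 122 TPM, and 83.4% for col-139, at 21.4, 65.2 and 152 TPM. In these 3 genes the level was lowest in replicate 1 and highest in replicate 3. Of 36 collagens at 10 TPM or more, 16 had a CV above 30% (44.4%), against 481 of 6398 genes of any kind (7.52%). Of those 16, 14 were highest in replicate 3 and 2 in replicate 1. The latter were col-95, at 1105, 483 and 315 TPM, and col-143, at 1903, 1187 and 1119 TPM. These counts of the highest library were the same under each other scaling. Of all genes at 1 TPM or more, 16.8% to 35.2% were highest in replicate 3, by scaling. The lowest CV of the 36 was that of col-20, at 1825, 1720 and 1740 TPM (3.16%). The summed level of the family was highest in replicate 1 and lowest in replicate 2, and differed by 1.13-fold between libraries in TPM and by 1.39-fold by median-of-ratios scaling. Genes named here outside the 20 most variable were chosen after their values were seen.

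Sperm transcripts were low and differed between libraries. The summed level of the 31 major sperm protein genes, which encode the cytoskeletal protein of nematode sperm, was 54.2, 120 and 337 TPM. All 26 of them at 1 TPM or more were highest in replicate 3 under each scaling, against 16.8% to 35.2% of all genes at 1 TPM or more, by scaling. The leading msp-40 stood at 3.56, 7.90 and 19.8 TPM. The highest library exceeded the lowest 6.21-fold in TPM and 5.99-fold by median-of-ratios scaling. The sperm list summed to 98.3, 122 and 206 TPM and the hypodermis list to 39.02, 69.4 and 78.9 TPM, both in the same order, which also held by median-of-ratios scaling. Without replicate 3 the major sperm protein share of the TPM was 0.00871%, against 0.0170% with it. Of the male somatic list 5 of 16 genes were at 0 and only ram-2, at 1.45, 5.03 and 9.87 TPM, was above 1 TPM in every library; the part of male animals in the sperm values was not tested.

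**Figure D4:**
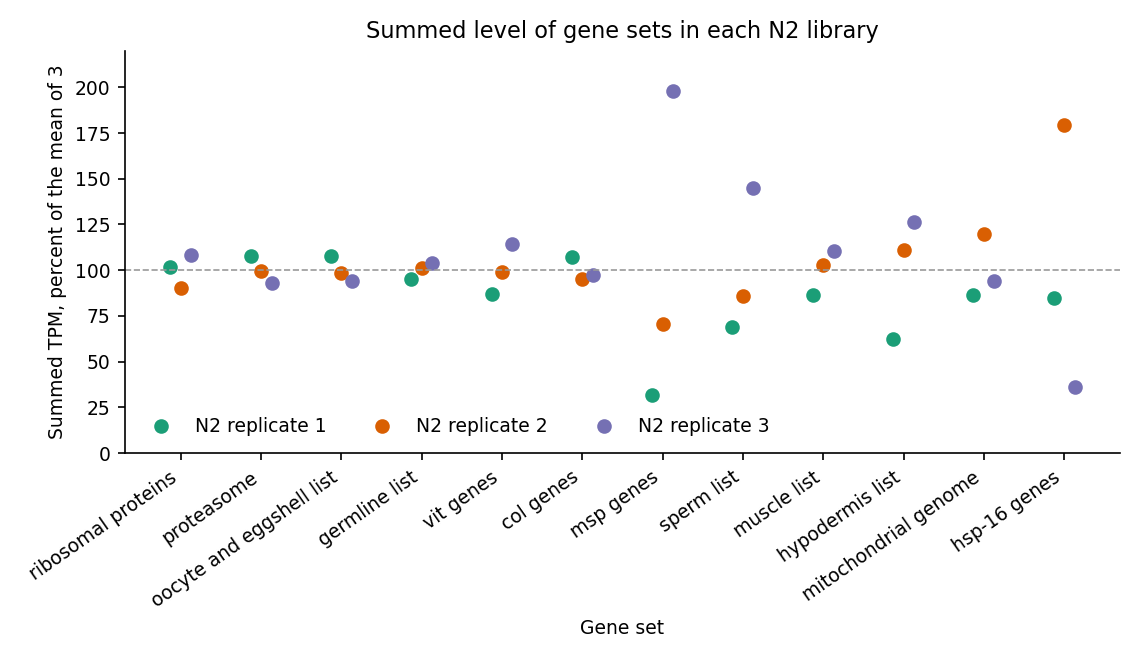
Summed TPM of gene sets in each N2 library as a percent of the mean over the 3 libraries (dashed line at 100). Points of most sets lie close together, while the msp genes reach 198% in replicate 3 and the hsp-16 genes 179% in replicate 2.

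The rest of the 20 most variable genes had several patterns. Of the 20, 19 kept the same highest library and 19 the same lowest under each other scaling, and the exceptions were B0393.8 and K08D12.6. The nematode-specific peptide gene nspc-6 stood at 34.4, 23.1 and 1.34 TPM and C14C6.5 at 23.2, 9.94 and 5.48 TPM, both lowest in replicate 3. The neighbouring genes pud-1.2 and pud-2.2 were highest in replicate 1, at 134, 45.8 and 48.1 TPM and at 46.99, 19.8 and 13.5 TPM. The polyprotein lipid carrier npa-1, at 8.89, 24.1 and 7.51 TPM, and the saposin-like spp-12, at 6.53, 20.8 and 7.75 TPM, were highest in replicate 2. B0393.8 was low in replicate 1, at 3.34, 36.3 and 34.6 TPM, and K08D12.6 was high in replicate 3, at 80.2, 83.2 and 234 TPM. The remaining members were col-92 and col-117, both highest in replicate 3.

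The 10 least variable genes at 100 TPM or more had CVs from 0.383% to 0.932%. The lowest CV was that of puf-8, a PUF-family RNA-binding protein of the germ line, at 134, 134 and 135 TPM (0.383%). It was followed by ZK418.5 and C24D10.6, by mev-1, a subunit of succinate dehydrogenase, by mcm-6, a subunit of the replicative helicase, and by nuo-3, a subunit of respiratory complex I. The list closed with snr-4, an Sm protein of the spliceosome, bir-1, the survivin homologue, B0280.9 and cisd-3.1, whose CV was 0.932%. Such CVs were below the 1.24% that counting gives for the median gene of this class, and with 3 libraries some genes fall that low by the choice of the lowest.

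**Figure D5:**
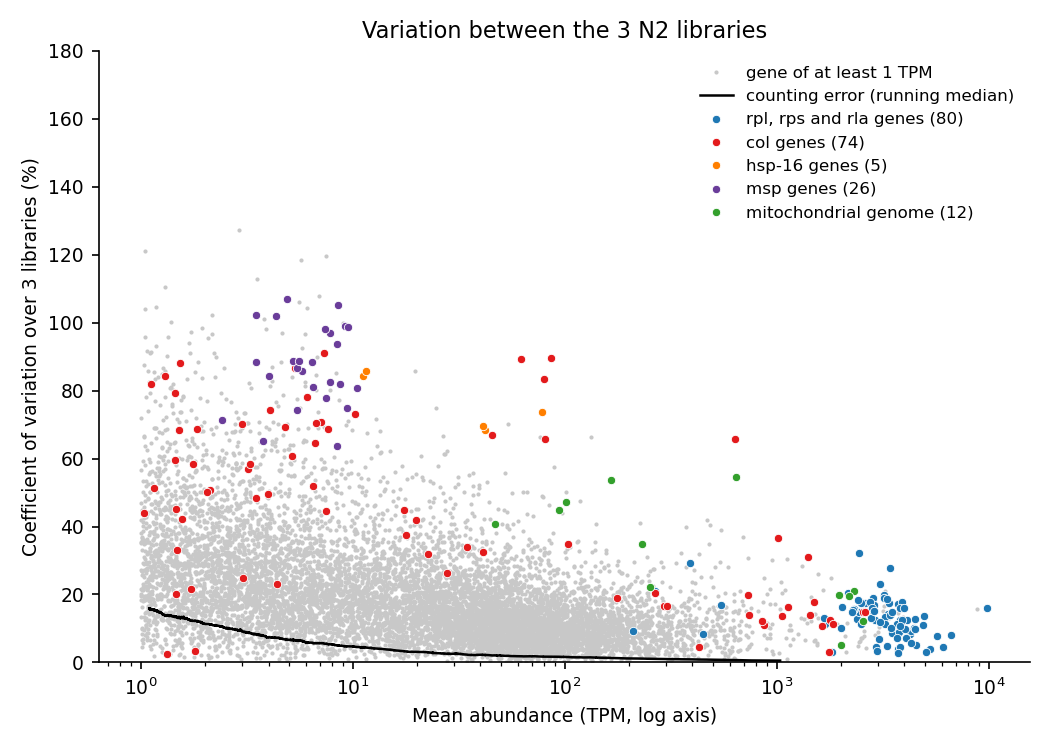
CV over the 3 N2 libraries against mean TPM (log axis) for 10160 genes at 1 TPM or more, with the counting error as a running median (line) and 5 gene sets in colour. The 26 msp genes and the 5 hsp-16 genes lie at high CV, and the 80 ribosomal protein genes lie mostly below 30%.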

How the data were processed

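The authors deposited, per the file headers, 1 table per library with RPKM values (the reads of a gene divided by its exon length and the mapped reads) and TPM values for 20222 genes; no counts were in them. Per the submitters' processing notes the genome build was WBcel235. The aligner, the counter, the annotation release and the strandedness were not given in the sources used here. Of the identifiers, 20052 (99.2%) were found in the Ensembl WBcel235 annotation used for exon lengths and gene types, and 5470 matched it in both coordinates; positions are those of the authors' tables, counted from 1.

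TPM was used as deposited. Depth was found from the step between low RPKM values, which is the worth of 1 read; 17360 of 17361 genes with a value came out as whole reads within 0.05 reads. The rebuilt exon length equalled the annotated one for 3494 of 3966 genes with the same coordinates (88.1%). This step was tested on simulated data.

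A family is a name prefix with at least 5 members (at least 20 for shares at 0). Values are means with SD over 3 libraries and no groups were tested against each other, since 1 group is described; a chi-square of rebuilt reads was used to see whether libraries were repeats. Named genes follow a rule: the 30 most abundant, the first of each chromosome, the leading members of the 20 largest families and of the 10 with most genes at 0, the 10 longest at 0, the 20 most and 10 least variable (means of at least 10 and 100 TPM), the leading 3 and those at 0 of each marker list, and the mutated genes. Members and lists were chosen with earlier results of these data known. Analyses used Python 3.11.15, pandas 2.3.3 and numpy 2.4.6. Alternatives were leaving out each library, rebuilt reads, leaving out the mitochondrial genome or the 10 most abundant genes, other thresholds, other scalings and other pseudocounts.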

Additional observations from a re-analysis of the deposited data

How the results depend on the processing

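Shares depended on dividing reads by exon length. As shares of rebuilt reads the top 10 genes held 8.07%, the top 100 26.7% and the top 1000 61.9%, 508.3 genes held the first 50%, ribosomal proteins held 13.6%, collagens 2.23%, vitellogenins 5.16%, chromosome I 22.1%, III 21.2%, X 7.96% and the mitochondrial genome 0.985%. Without the 10 most abundant genes the next 10 held 4.70%, ribosomal proteins 23.4%, collagens 2.76% and chromosomes I, III, IV, V and X 23.3%, 22.1%, 18.3%, 15.3% and 5.52%; without the mitochondrial genome chromosome IV held 19.2%. Genes below 0.1 TPM in all libraries numbered 4995, below 1 TPM 9528 and under 5 reads 5789. The mean pairwise r was 0.990 with a pseudocount of 0.1 and between 0.993 and 0.994 with a library left out. At 5 TPM in every library the lists kept 2 sperm, 0 early embryo, 2 hypodermis, 5 neuron, 7 gonad sheath and 0 male genes. Of 146 alternative values for these results, 115 stayed within the spread between libraries or, for counts, within 1.5 times the value given. For mean shares, leaving out a library cannot move the value beyond that spread. Those alternatives are part of the 115 and say nothing on robustness. Depth limits only genes near 0. No paired analysis was possible because 1 group was described and no groups were compared.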
